A study of Mus musculus with 18 samples.

Results

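The brush border is the apical surface of the absorptive enterocyte, and 41 genes for digestive enzymes, nutrient transporters and microvillus structure of this cell were followed here. They were picked by gene name for their known roles, with earlier results of these data known, and comprised 14 hydrolases, 18 transporters, 7 microvillus structure genes and the 2 subunits of the cubam receptor. Some transporters, among them Slc51b, Slc7a8 and Slc2a2, belong to the basolateral membrane, and Krt20, a keratin, was counted with the structure genes. All are called brush border genes here for short. All 41 were found among the 55335 genes of the count table, and all passed the filter on low counts, which left 21349 genes to test. The material was small intestinal crypts, isolated from PRMT1 fl/fl mice, which carry LoxP sites around part of both copies of the gene, at an age of 8 to 12 weeks. KO mice also carried Vil-CreERT2, a tamoxifen-activated Cre recombinase driven by the villin promoter in intestinal epithelium, while WT mice were PRMT1 fl/fl littermates without Cre. Tamoxifen was given to both genotypes at 2 mg each time, 2 times for the mice collected at day 2 and 5 times for those collected at day 7 or 14. Total RNA depleted of ribosomal RNA was sequenced from 3 mice per genotype and day, so that each of the 18 libraries stands for 1 mouse.

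As enterocytes leave the crypt and move up the villus they build microvilli on bundled actin, and the microvillar membrane is loaded with enzymes that finish the digestion of sugars and peptides. Transporters in the same membrane take up the products, and others in the basolateral membrane pass them to the blood. Crypt preparations hold stem cells, dividing progenitors and Paneth cells together with young enterocytes, and these genes are known to be low in stem cells and to rise with enterocyte maturation.

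The total count per library was 12844642 to 31493484. Prmt1, the targeted gene, measured 13.1 to 15.8 CPM (counts per 1000000, after TMM scaling) in KO against 26.1 to 27.1 in WT at day 2, 13.6 to 17.4 against 22.3 to 25.9 at day 7 and 14.95 to 16.1 against 20.2 to 30.6 at day 14. The 8 stem cell markers summed to 1341 to 1896 CPM over the 9 WT libraries and the 8 Paneth cell markers to 7601 to 21986 CPM, whereas the 9 stromal markers summed to 17.3 to 181 CPM and the 8 immune markers to 66.2 to 190 CPM. Some WT libraries stood apart for the brush border genes as a whole. WT day 2 replicate 2 had the lowest value of its group for 40 of 41 genes and replicate 3 the highest for 39, and WT day 14 replicate 1 had the lowest value for 38. The genes that the study removed for a difference between sexes held 0.160% of the counts in WT day 2 replicate 3. In replicates 1 and 2 of that group they held 0.0464% and 0.0479%. The median over the 41 genes, as log2 CPM minus the WT mean of the same day, was 0.04, -0.54 and 0.51 in WT day 2 replicates 1 to 3, 0.03, -0.03 and 0.04 at day 7, and -0.52, 0.27 and 0.29 at day 14. The spread between WT mice was thus wider at days 2 and 14 than at day 7.

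**Figure D1:**
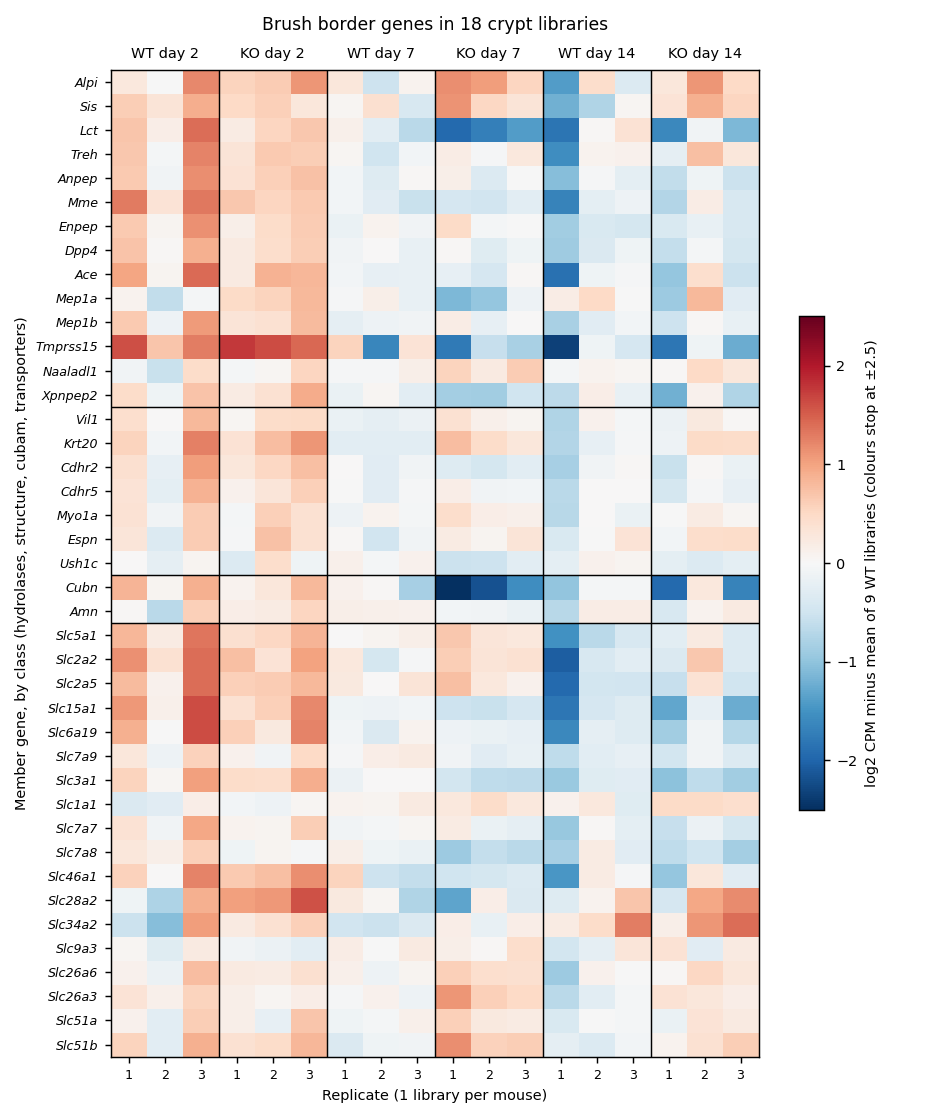
Level of each of the 41 genes (rows, grouped as hydrolases, microvillus structure, cubam and transporters) in each of the 18 libraries (columns), as log2 CPM minus the mean of the 9 WT libraries. WT day 14 replicate 1 has the lowest value of its group in 38 of 41 rows, and Lct and Cubn are low in all 3 KO day 7 libraries.

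Levels were compared between genes per length, as RPKM (CPM per kilobase of exon), over the 9 WT libraries of all days. Anpep, aminopeptidase N, had the highest mean at 589 ± 280.5 RPKM (SD, n = 9), followed by the disaccharidase gene Sis at 416 ± 175, the actin bundler Vil1 at 342 ± 110.1 and the sodium-glucose cotransporter Slc5a1 at 331 ± 187. The SD of each of these exceeded the distance to the next gene in the order. The order differed between days: Anpep and Sis led at days 2 and 7, with Slc5a1 ahead of Vil1, whereas at day 14 Anpep (413 ± 139 RPKM, SD, n = 3) was followed by Vil1 (287 ± 82.4), Sis (262 ± 118) and Naaladl1 (225 ± 10.7), and Slc5a1 (167 ± 60.0) also stood below Krt20 and Myo1a. The SD of Vil1 and that of Sis at day 14 each exceeded the distance between them. At the low end stood Espn, encoding the actin bundler espin, at 3.50 ± 0.941 RPKM and Tmprss15, which encodes the trypsinogen activator enteropeptidase, at 5.59 ± 3.95 RPKM, Tmprss15 being the lower of the 2 at day 14 (2.596 ± 1.589 beside 3.43 ± 0.861 RPKM) and the higher at days 2 and 7. The 10 genes with the highest mean comprised 6 hydrolases (Anpep, Sis, Enpep, Naaladl1, Mep1b and Alpi), 3 microvillus structure genes (Vil1, Krt20 and Myo1a) and 1 transporter, Slc5a1. The highest WT library exceeded the lowest by a median of 3.69 fold over the 41 genes, from 1.28 fold for Ush1c to 15.8 fold for Tmprss15.

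The sequence upstream of the start site was examined for 39 of the 41 genes, which had an entry in RefSeq's promoter table (GRCm38.p6), and is shown for Lct, Sis, Slc26a3 and Cubn, which were among the genes called at day 7 or 14, and for the 3 genes that held the longest motif. Motif letters were searched on both strands in the 250 bases before the start: TTTATG for CDX2, AGATAA for GATA factors, CAAAGTCCA for HNF4 and TATAAA for the TATA box. These factors are known regulators of enterocyte genes. Capitals mark the matches, each sequence is printed 5′ to 3′ on the strand of its gene, and the sequences lie at chr1:128328319-128328568 (minus strand) for Lct, chr3:72967864-72968113 (minus) for Sis, chr12:31437969-31438218 (plus) for Slc26a3, chr2:13491877-13492126 (minus) for Cubn, chr1:87101607-87101856 (minus) for Alpi, chr9:44672983-44673232 (plus) for Treh and chr17:85028097-85028346 (plus) for Slc3a1.
Lct: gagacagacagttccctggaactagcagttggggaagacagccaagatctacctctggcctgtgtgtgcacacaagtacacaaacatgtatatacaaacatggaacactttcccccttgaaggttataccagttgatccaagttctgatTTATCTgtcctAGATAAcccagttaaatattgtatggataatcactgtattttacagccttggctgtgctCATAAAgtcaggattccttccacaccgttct
Sis: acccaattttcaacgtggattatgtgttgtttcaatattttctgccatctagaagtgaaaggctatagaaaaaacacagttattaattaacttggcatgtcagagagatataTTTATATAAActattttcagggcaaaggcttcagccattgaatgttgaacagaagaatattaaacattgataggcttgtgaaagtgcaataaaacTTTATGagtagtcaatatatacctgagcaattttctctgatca
Slc26a3: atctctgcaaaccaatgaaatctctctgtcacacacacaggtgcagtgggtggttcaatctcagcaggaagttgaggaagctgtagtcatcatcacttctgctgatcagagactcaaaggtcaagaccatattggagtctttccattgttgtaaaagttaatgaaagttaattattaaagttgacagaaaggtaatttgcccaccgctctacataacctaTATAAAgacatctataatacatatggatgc
Cubn: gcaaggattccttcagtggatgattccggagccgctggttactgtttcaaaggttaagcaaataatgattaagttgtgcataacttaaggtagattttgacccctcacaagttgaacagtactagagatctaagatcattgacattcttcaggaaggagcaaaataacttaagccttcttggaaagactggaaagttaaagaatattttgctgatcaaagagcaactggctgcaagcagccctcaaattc
Alpi: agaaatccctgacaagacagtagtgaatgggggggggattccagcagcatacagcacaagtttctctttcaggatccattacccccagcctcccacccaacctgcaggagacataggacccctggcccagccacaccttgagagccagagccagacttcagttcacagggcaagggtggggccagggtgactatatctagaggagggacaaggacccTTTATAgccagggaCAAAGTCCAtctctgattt
Treh: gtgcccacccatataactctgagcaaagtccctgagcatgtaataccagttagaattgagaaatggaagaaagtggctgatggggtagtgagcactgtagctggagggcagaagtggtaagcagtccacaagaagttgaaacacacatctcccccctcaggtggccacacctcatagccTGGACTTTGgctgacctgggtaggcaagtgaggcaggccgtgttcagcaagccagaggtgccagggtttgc
Slc3a1: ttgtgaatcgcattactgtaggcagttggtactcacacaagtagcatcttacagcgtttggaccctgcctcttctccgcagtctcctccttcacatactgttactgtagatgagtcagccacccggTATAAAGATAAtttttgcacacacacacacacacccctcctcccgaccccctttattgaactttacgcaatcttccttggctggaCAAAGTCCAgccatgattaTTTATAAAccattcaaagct

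The HNF4 letters were found in 3 of 39 brush border promoters (7.69%), those of Alpi, Treh and Slc3a1, and in 0.384% of all 32851 promoters in the table. The match began 19 bases before the start in Alpi and 39 in Slc3a1, and 71 bases before it on the other strand in Treh. The shorter motifs were closer to their share in all promoters, with the CDX2 letters in 12.8% of brush border promoters against 10.8% of all, the GATA letters in 17.9% against 9.99% and the TATA letters in 20.5% against 12.4%. Sis held the CDX2 and TATA letters, the TATA matches on both strands overlapping each other. Lct held CDX2 and 2 GATA matches. Slc26a3 held a TATA match 30 bases before its RefSeq start, which lies 47348 bases inside the gene as the count table draws it. None of the 4 motifs was matched in the Cubn window, and a match or its absence is a description of these letters only. Of the genes for the factors themselves none of the following passed the test, the log2 fold change of KO over WT at day 7 being 0.03 for Hnf4a, 0.06 for Cdx2 and 0.25 for Gata4, with adjusted p of 0.939, 0.861 and 0.382 (edgeR quasi-likelihood test, Benjamini-Hochberg adjusted).

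At day 2 no brush border gene differed between KO and WT at an adjusted p under 0.05 (0 of 41, against 0.0328% of all genes tested, edgeR quasi-likelihood test, Benjamini-Hochberg adjusted over all genes, which is the test behind every adjusted p below). DESeq2's Wald test called 0 as well. An unadjusted p under 0.05 was seen for 2 of 41 genes, against 3.33% of all genes tested. These were Mep1a, a subunit of the metalloprotease meprin, and Slc28a2, a concentrative nucleoside transporter. Mep1a measured 121, 73.6 and 109 CPM in WT replicates 1 to 3 and 159, 168 and 199 CPM in KO. All 3 KO libraries were above all WT libraries, as for Slc28a2, while Slc7a8 lay below in every KO library (3 of 41 without overlap, against 8.16% of all genes), and the log2 fold change of Mep1a was 0.79 (SE 0.35, adjusted p = 0.999). Of the 41 genes, 28 had a 95% interval of the log2 fold change within 1 of zero at day 2, and the intervals of the other 13 reached beyond it.

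At day 7 a few brush border genes were called, in opposite directions and at a share no higher than that of all genes, while most members did not pass the test. Of the 41 genes, 6 passed the threshold (14.6%), 2 higher and 4 lower in KO, against 17.3% of all genes tested (7.11% higher and 10.2% lower). The median log2 fold change over the members was 0.07, beside 0.02 over all genes. By class it was 0.02 for hydrolases, 0.27 for microvillus structure, 0.13 for transporters and -1.09 for the 2 cubam genes. All 3 KO libraries were above all WT libraries for 14 members and below them for 9, and 18 overlapped (33.6% of all genes tested did not overlap, 15.9% being higher and 17.7% lower). In bulk RNA, fewer cells of a type and less RNA per cell cannot be told apart. The number of members called was 2 without KO day 7 replicate 1 or without WT day 7 replicate 1, and 3 without KO day 7 replicate 2 or WT day 7 replicate 2. In a fit of only the 6 day 7 libraries it was 11 (5 higher and 6 lower), where 14.8% of all genes were called, and with these 4 libraries left out in turn, in the order named, the share of all genes was 9.43%, 11.5%, 12.7% and 12.1%.

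**Figure D2:**
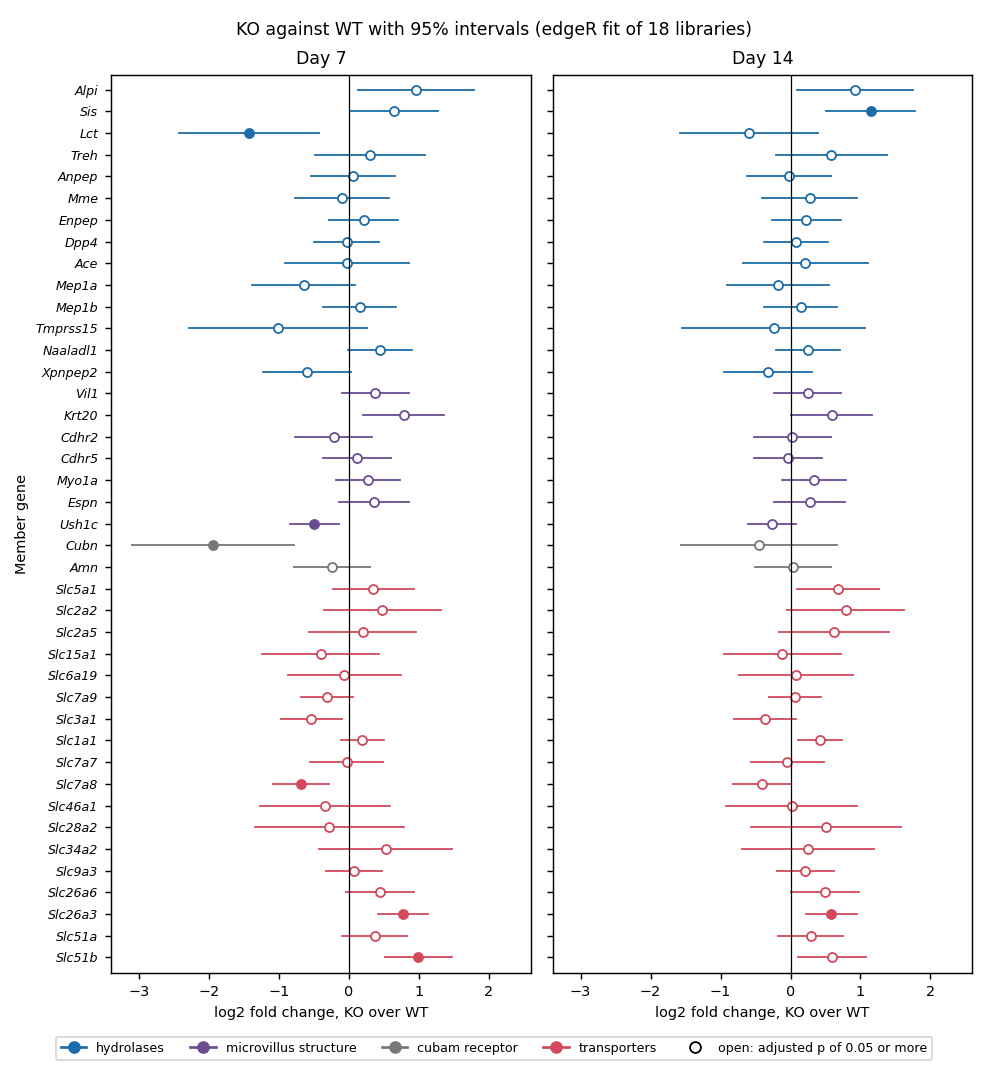
Log2 fold change of KO over WT for each of the 41 genes at day 7 (left) and day 14 (right), with 95% intervals from the fit, coloured by class; filled points have an adjusted p under 0.05. At day 7 the filled points are Lct, Ush1c, Cubn and Slc7a8 to the left and Slc26a3 and Slc51b to the right, and at day 14 Sis and Slc26a3 to the right.

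Among the hydrolases, 1 of 14 was called at day 7. Lct (ENSMUSG00000026354.8, mm10 chr1:128284756-128328318, minus strand) encodes lactase, the enzyme that splits milk sugar. It measured 986, 756 and 570.3 CPM in WT replicates 1 to 3 and 237, 279 and 346 CPM in KO at day 7. The KO libraries all lay below the WT libraries, the KO mean being 37.3% of WT, and the log2 fold change was -1.42 (SE 0.47, adjusted p = 0.0486). This call was lost whichever of the 6 libraries was left out (adjusted p 0.0547 to 0.181), with log2 fold changes of -1.60 to -1.21, and also without the filter on low counts (adjusted p = 0.129). The other 13 hydrolases did not pass. Their log2 fold changes ran from -1.02 for Tmprss15, whose SE was 0.59, to 0.95 for Alpi, intestinal alkaline phosphatase (adjusted p = 0.109).

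The other sugar-splitting enzymes did not pass. Sis, sucrase-isomaltase, had a log2 fold change of 0.65 (adjusted p = 0.153) and Treh, trehalase, of 0.30 (adjusted p = 0.649). Nor did the peptidases, of which Anpep was at 0.06, neprilysin (Mme) at -0.10, Dpp4 at -0.03 and Ace at -0.03 on the log2 scale, with adjusted p from 0.874 to 0.976. Naaladl1, a peptidase of the same membrane, lay above WT in every KO library (0.45, adjusted p = 0.183), and Xpnpep2, membrane aminopeptidase P, below it in every KO library (-0.60, adjusted p = 0.187).

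Meprin is assembled from the products of Mep1a and Mep1b. At day 7 Mep1a measured 111, 125 and 99.6 CPM in WT and 52.1, 58.0 and 104 CPM in KO replicates 1 to 3. Mep1b measured 444, 474 and 491 CPM in WT and 593, 454 and 523 CPM in KO. KO replicate 3 overlapped WT for Mep1a, the other KO replicates being low, and for Mep1b KO replicate 2 lay within the WT range with the other KO replicates above it. Log2 fold changes were -0.65 (SE 0.35, adjusted p = 0.228) and 0.15 (SE 0.25, adjusted p = 0.736).

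Of the 7 microvillus structure genes, 1 was called at day 7. Ush1c (ENSMUSG00000030838.19, mm10 chr7:46195350-46238503, minus strand) encodes harmonin, the scaffold that anchors the adhesion links between microvillus tips. It measured 154, 137 and 152 CPM in WT and 97.4, 98.8 and 118 CPM in KO replicates 1 to 3. The KO libraries were all lower, at 71.1% of the WT mean, with log2 fold change -0.49 (SE 0.17, adjusted p = 0.0463). The call held only without KO replicate 3 when single libraries were left out, the adjusted p over the 6 fits being 0.0334 to 0.173. The protocadherins that harmonin binds, Cdhr2 and Cdhr5, had log2 fold changes of -0.22 and 0.12 with adjusted p of 0.633 and 0.796.

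None of the other 6 microvillus structure genes passed, and 5 of them had higher values in KO. Vil1, the actin bundler whose promoter drives the Cre, measured 1034, 990.5 and 1049.6 CPM in WT and 1515, 1266 and 1211 CPM in KO at day 7. Every KO library lay above every WT library, yet the log2 value of 0.38 (SE 0.23) had an adjusted p of 0.293. Krt20, a keratin of mature enterocytes, had the largest value of the class at 0.78 (SE 0.28, adjusted p = 0.0582) and was called by DESeq2's Wald test (adjusted p = 0.0225). Espn and Myo1a, the latter a membrane-linked myosin, also lay above WT in every KO library, with adjusted p of 0.345 and 0.439.

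The receptor for intrinsic factor and cobalamin, cubam, is made of cubilin (Cubn) and its membrane anchor amnionless (Amn). Cubn (ENSMUSG00000026726.10, mm10 chr2:13276338-13491813, minus strand) measured 422, 400.3 and 221 CPM in WT replicates 1 to 3 and 51.1, 87.1 and 134 CPM in KO. All KO libraries were below all WT libraries and the KO mean was 26.1% of WT, the greatest drop among the 41 genes in this fit. The log2 fold change was -1.94 (SE 0.54, adjusted p = 0.0228), ranging from -2.30 to -1.64 with single libraries left out. The adjusted p rose to 0.11 without KO replicate 1, 0.0702 without KO replicate 2, 0.0713 without WT replicate 1 and 0.0654 without WT replicate 2, and was 0.0539 without the filter on low counts. Its partner Amn measured 50.8, 50.3 and 49.0 CPM in WT and 43.4, 43.1 and 40.6 CPM in KO. Amn also lay below WT in every KO library, at -0.24 on the log2 scale (SE 0.26, adjusted p = 0.587).

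**Figure D3:**
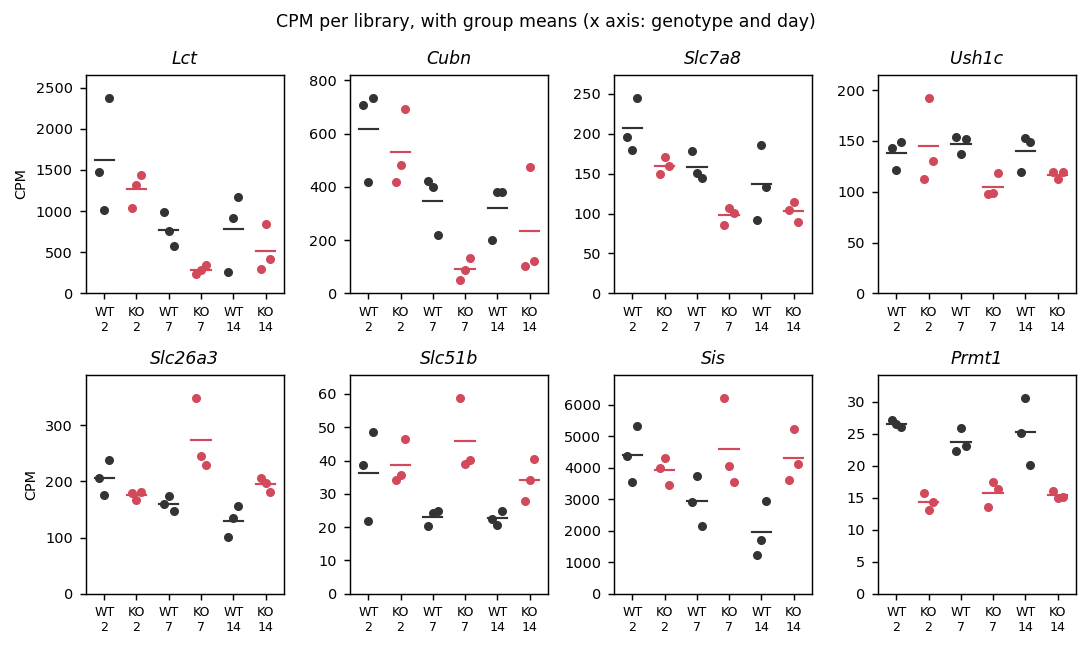
CPM in each library (points) and group means (lines) for the 7 genes called at day 7 or 14 and for the targeted gene Prmt1, with WT in black and KO in red, for days 2, 7 and 14. KO day 7 points of Lct and Cubn lie below all WT day 7 points, and KO points of Slc26a3 and Slc51b lie above the WT points at days 7 and 14.

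Of the 18 transporters, 3 were called at day 7, 2 higher and 1 lower. Slc51b (ENSMUSG00000053862.6, mm10 chr9:65412714-65422955, minus strand) encodes the beta subunit of the basolateral bile acid exporter. It measured 20.4, 24.2 and 24.7 CPM in WT and 58.7, 38.8 and 40.3 CPM in KO replicates 1 to 3. KO replicate 1 was the highest and the genotypes did not overlap. The KO mean was 1.99 times WT, with log2 fold change 0.99 (SE 0.23, adjusted p = 0.00583). The alpha subunit, Slc51a, measured 101, 107 and 120.0 CPM in WT and 166, 130.2 and 127 CPM in KO, again without overlap, with log2 fold change 0.37 (SE 0.22, adjusted p = 0.289).

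Slc26a3 (ENSMUSG00000001225.12, mm10 chr12:31390871-31473917, plus strand) encodes the apical chloride-bicarbonate exchanger. Its level at day 7 was 159, 175 and 148 CPM in WT and 348, 246 and 229 CPM in KO replicates 1 to 3. The genotypes did not overlap, KO replicate 1 being the highest, and the KO mean was 1.71 times WT (log2 fold change 0.77, SE 0.17, adjusted p = 0.00418). With each day 7 library left out in turn Slc26a3 stayed at 0.59 to 0.91 and Slc51b at 0.80 to 1.10, and both were called in all 6 fits. The other ion transporters, the anion exchanger Slc26a6, the phosphate transporter Slc34a2 and the sodium-hydrogen exchanger Slc9a3, had values of 0.45, 0.52 and 0.07, with adjusted p of 0.209, 0.477 and 0.846.

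The lower transporter was Slc7a8 (ENSMUSG00000022180.7, mm10 chr14:54722209-54781946, minus strand), the light chain of a basolateral exchanger of neutral amino acids. It measured 178, 150.4 and 145 CPM in WT and 86.2, 107 and 101 CPM in KO at day 7. The KO libraries were all lower, at 62.2% of the WT mean (log2 fold change -0.69, SE 0.19, adjusted p = 0.0193), and the call was lost without KO replicate 1 (adjusted p = 0.108) or WT replicate 1 (adjusted p = 0.0877). Slc7a7, which shares with Slc7a8 the heavy chain encoded by Slc3a2, had a log2 fold change of -0.03 (adjusted p = 0.953), and Slc3a2 itself of -0.01 (adjusted p = 0.987).

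The apical cystine transporter pairs the heavy chain Slc3a1 with the light chain Slc7a9. Slc3a1 measured 147, 165 and 163 CPM in WT and 119, 104 and 104 CPM in KO replicates 1 to 3. Slc7a9 measured 97.5, 112 and 116 CPM in WT and 93.7, 82.0 and 86.8 CPM in KO. For both chains every KO library was below every WT library, the log2 fold changes being -0.54 (SE 0.21, adjusted p = 0.0886) and -0.31 (SE 0.18, adjusted p = 0.256), neither of which passed.

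Among transporters of peptides and amino acids 6 of 7 had lower values in KO at day 7, with a median of -0.31, and the 3 sugar transporters had higher values, with a median of 0.35. For the sugar transporters the values were 0.35 for Slc5a1, 0.48 for the basolateral glucose carrier Slc2a2 and 0.20 for the fructose carrier Slc2a5, with adjusted p from 0.437 to 0.777. Slc15a1, the proton-coupled peptide transporter, was at -0.40 (adjusted p = 0.55), the neutral amino acid transporter Slc6a19 at -0.06 (adjusted p = 0.936) and the glutamate transporter Slc1a1 at 0.19 (adjusted p = 0.42). The folate transporter Slc46a1 was at -0.34 and Slc28a2 at -0.28, with SE of 0.43 and 0.50. No difference between the transporter classes was tested.

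Related genes outside the 41 were described in the same fit at day 7. Of 13 further brush border hydrolases tested, Pnliprp2, a pancreatic lipase-related protein, was lower (-2.16, adjusted p = 0.00186) and none was higher. Of 39 further transporters 3 were higher and 2 lower, with a median of 0.02: the sugar transporter family member Slc5a4b at 1.99, the sulfate transporter Slc26a2 at 0.88, the zinc transporter Slc39a4 at 0.61, the amino acid transporter family member Slc7a15 at -1.39 and the sugar transporter family member Slc5a9 at -0.83. Of 23 further structure genes 2 were higher, Twf2 (1.17), an actin-capping twinfilin, and Eps8l3 (0.54), and 2 lower, Calml4 (-0.53), a myosin light chain of the intermicrovillar adhesion complex, and Fchsd2 (-0.45). Of 18 regulators of enterocyte identity 2 were lower and none was higher, Cdx1 being 1 of the 2 (-0.43, adjusted p = 0.0483). Of 4 markers of the proximal small intestine tested, Fabp1 was higher (1.55) and Onecut2 lower (-0.67), and of 4 distal markers tested 1, which is also among the 2 regulators, was lower and none higher.

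Markers of other cells moved with genotype at day 7. The 8 Paneth cell markers were all called lower, their sum being 1518 to 4192 CPM in KO and 9442 to 15955 CPM in WT. Of the 8 stem cell markers 5 were lower, with sums of 347 to 868 and 1341 to 1738 CPM, and the 8 enteroendocrine markers were all higher, with sums of 649.9 to 813 and 287 to 311 CPM. Of the 8 absorptive lipid genes Fabp1 (1.55) and Fabp2 (1.22), which encode fatty acid binding proteins of enterocytes, were higher, and the sums were 12577 to 20096 CPM in KO and 8225 to 10737 in WT. Of the other lists, 3 of 8 goblet cell and 1 of 8 tuft cell markers were lower, 0 of 10 proliferation and 0 of 8 immune markers were called, and 1 of 9 stromal markers was higher. All 10 proliferation markers nevertheless had lower values in KO, with a median of -0.21. The same held for 7 of 8 tuft cell markers, 4 of which lay below WT in every KO library. No marker of these 9 lists was at 0 in every library of a group. KO day 7 replicate 1 had the lowest medians of Paneth (-3.05) and stem cell markers (-1.74) and the highest of the absorptive lipid genes (1.19), and was the library with the highest Slc26a3, Slc51b and Sis and the lowest Cubn, Lct and Slc7a8. The part of cell composition in the day 7 differences was not tested.

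**Figure D4:**
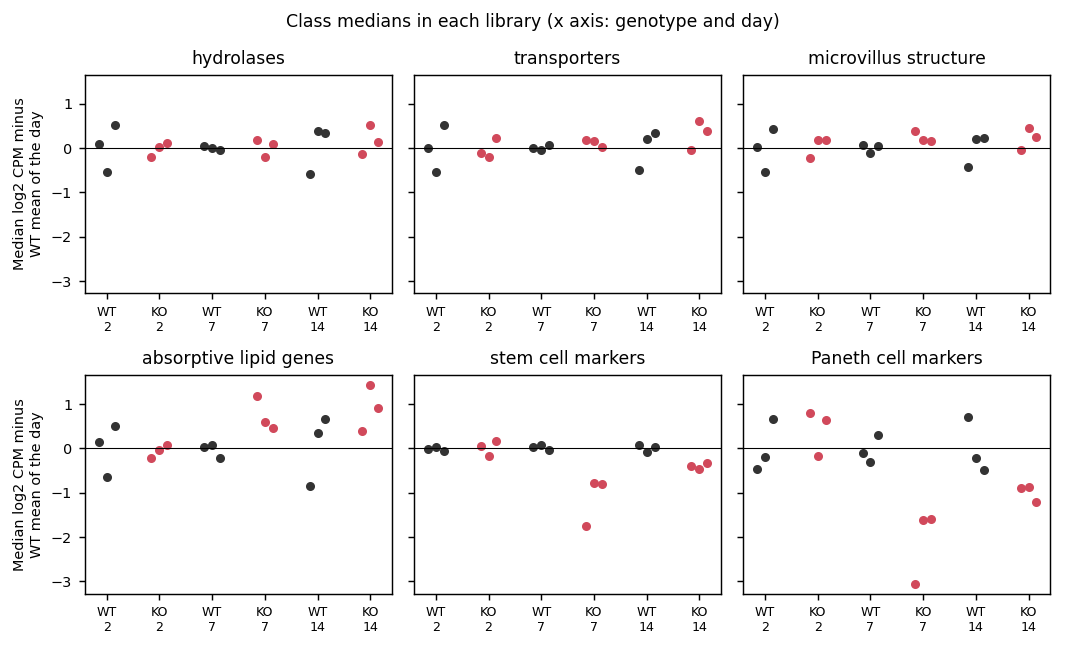
Median over the genes of each class in each library, as log2 CPM minus the WT mean of the same day, for 3 classes of brush border genes (top) and for absorptive lipid genes, stem cell markers and Paneth cell markers (bottom), with WT in black and KO in red. At day 7 the hydrolase and transporter medians of KO overlap those of WT, the microvillus structure (KO 0.15 to 0.38, WT -0.11 to 0.06) and absorptive lipid medians of KO lie above all WT libraries, and the stem and Paneth cell medians of KO lie below them.

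At day 14, 2 of 41 genes passed (4.88%, against 7.92% of all genes tested), and both were higher in KO, a direction that 3.23% of all genes showed. The median over the members was 0.21, beside 0.00 over all genes, and was 0.18 for hydrolases, 0.24 for structure genes and 0.27 for transporters. Positive values were held by 29 of 41 members. WT day 14 replicate 1, the library with low values for most members, bears on these medians: without it they were -0.09, 0.03 and 0.13 for the 3 classes in the same order. KO day 14 replicate 1, the library of the same number, was itself the lowest of its group for 34 members, and between libraries of the same number the KO minus WT difference of class medians in pairs 1 to 3 was 0.45, 0.13 and -0.19 for hydrolases, 0.37, 0.25 and 0.03 for structure genes and 0.45, 0.39 and 0.04 for transporters, positive in every pair for the latter 2 classes. Without KO day 14 replicate 2, which had the highest value for 32 members, the hydrolase median was -0.04. KO lay wholly above WT for 5 members (Sis, Slc5a1, Slc1a1, Slc26a3 and Slc51b) and wholly below for Ush1c, and 35 overlapped (26.5% of all genes tested did not).

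Sis (ENSMUSG00000027790.14, mm10 chr3:72888557-72967863, minus strand), the enzyme for sucrose and starch fragments, was the hydrolase called at day 14. It measured 1228, 1694 and 2934 CPM in WT replicates 1 to 3 and 3611, 5225 and 4134 CPM in KO. All KO libraries were above all WT libraries, and the KO mean was 2.21 times WT (log2 fold change 1.15, SE 0.30, adjusted p = 0.0229). The log2 fold change stayed at 0.91 to 1.58 with single libraries left out, and the call was lost without KO replicate 2 (adjusted p = 0.0876), KO replicate 3 (0.0507), WT replicate 1 (0.0907) or WT replicate 2 (0.0864). At day 7 its libraries overlapped, at 2923, 3731 and 2164 CPM in WT and 6212, 4065 and 3555 CPM in KO.

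Slc26a3 was called at day 14 as at day 7. It measured 101, 134 and 155 CPM in WT and 206, 197 and 182 CPM in KO replicates 1 to 3, with no overlap and a KO mean at 149.8% of WT. The log2 fold change was 0.58 (SE 0.17, adjusted p = 0.0434). It ranged over 0.44 to 0.74 with single libraries left out, and the adjusted p stayed under 0.05 only without WT replicate 3, ranging from 0.0254 to 0.164 over the 6 fits. The count of called members at day 14 was 0 without KO replicate 3 (4.73% of all genes). It was 1 without KO replicate 1 (Sis), KO replicate 2 (Cubn, lower, -1.49), WT replicate 1 (Slc7a8, lower, -0.63) or WT replicate 2 (Alpi, higher, 1.45), where 4.95%, 5.24%, 6.08% and 5.36% of all genes were called in that order. In a fit of only the 6 day 14 libraries it was 1 (Slc51b, higher), against 6.52% of all genes.

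Same-numbered KO and WT libraries deviated together to a small degree at day 14, with correlations of 0.159 to 0.227, and were taken as pairs there. With the replicate number as a block, 6 members were called at day 14, all higher in KO: Alpi, Sis, Slc2a2, Slc1a1, Slc26a6 and Slc26a3. The share of all genes called in that fit was 9.86% in either direction, and the share called higher was not computed. In that fit the log2 fold change of Alpi was 1.06 (adjusted p = 0.00941), of Sis 1.23 (adjusted p = 0.00847) and of Slc26a3 0.60 (adjusted p = 0.0288). Alpi measured 162, 579 and 334 CPM in WT and 519, 912 and 601 CPM in KO replicates 1 to 3, so that each KO library exceeded the WT library of its number although the groups overlapped.

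Of the 4 genes called lower at day 7 none was called at day 14. Cubn measured 199, 379 and 381 CPM in WT and 103, 476 and 123 CPM in KO replicates 1 to 3. KO replicate 2 exceeded every WT library while the other KO libraries lay below all of them, and the log2 fold change was -0.45 (SE 0.52, adjusted p = 0.692). Lct measured 257, 921 and 1166 CPM in WT and 296, 848 and 415 CPM in KO, with WT replicate 1 the lowest of all and log2 fold change -0.59 (SE 0.47, adjusted p = 0.519). The Lct value was -1.002 without WT replicate 1, -1.13 without KO replicate 2 and -0.18 without WT replicate 3, and that of Cubn -1.49 to -0.09 over the 6 fits with 1 library left out. Ush1c measured 119.9, 153 and 149 CPM in WT and 119, 112 and 119 CPM in KO, still without overlap (-0.27, adjusted p = 0.379), and Slc7a8 measured 91.5, 186 and 133 CPM in WT and 104, 115 and 89.9 CPM in KO (-0.41, adjusted p = 0.222).

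No partner gene passed at day 14. The log2 fold change was 0.04 for Amn, -0.18 and 0.14 for the meprin subunits, -0.36 and 0.07 for the cystine transporter chains and 0.29 for Slc51a, with adjusted p of 0.343 or more. Slc51b measured 22.3, 20.5 and 24.98 CPM in WT and 28.0, 34.2 and 40.3 CPM in KO. Its KO libraries were all higher, with log2 fold change 0.60 (SE 0.23, adjusted p = 0.131). Vil1 measured 688, 1245 and 1123 CPM in WT and 1057, 1384 and 1179 CPM in KO, overlapping, at 0.24 (adjusted p = 0.604). The sugar transporters all had higher values in KO, 0.68 for Slc5a1, 0.79 for Slc2a2 and 0.62 for Slc2a5, with adjusted p of 0.152, 0.264 and 0.361 in the fit without a block. Slc2a2 was called only in the fit with the replicate number as a block.

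In the further lists at day 14, 4 of 39 transporters were higher and none lower, among them Slc5a4b (1.79), the citrate transporter Slc13a2 (1.03) and Slc26a2 (0.72). The same held for 2 of 23 structure genes, Twf2 (0.78) and Eps8l3 (0.54), and no further hydrolase of 13 was called. Of the 18 regulators 1 was lower and none higher, and this gene was also the only one called of the 4 distal markers tested, since both lists hold it. All 8 enteroendocrine markers were higher, with sums of 768 to 921 CPM in KO and 247 to 326 in WT. Of the Paneth cell markers 1 of 8 was called lower, yet all 8 had lower values and 6 lay below WT in every KO library, the sums being 5955 to 7822 CPM in KO and 9781 to 21986 in WT without overlap. Of the proliferation markers 2 of 10 were called lower, all 10 had lower values and 6 lay below WT in every KO library, with sums of 976 to 1122 and 1197 to 1482 CPM. Of the stem cell markers 1 of 8 was called lower, 7 had lower values and 5 lay below WT in every KO library, with sums of 1286 to 1519 and 1623 to 1832 CPM. Of the goblet cell markers 1 of 8 was called lower, with sums of 10820.5 to 12763 and 13257 to 13357 CPM. No absorptive lipid gene was called, the sums being 9709.9 to 20662 CPM in KO and 4989 to 12693 in WT, which overlapped, but all 8 genes had higher values in KO and the difference of their medians between libraries of the same number was 1.24, 1.09 and 0.25 in pairs 1 to 3. The part of these markers in the day 14 differences was not tested.

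Whether the genotype effect changed with time was tested as a difference of effects. Between days 7 and 14 no member passed (0 of 41, against 0.00% of all genes), and 0 of 41 had an unadjusted p under 0.05 (against 4.46% of all genes). DESeq2's Wald test also called 0. The difference was 1.49 for Cubn with a 95% interval of -0.10 to 3.07, and 0.83 for Lct with an interval of -0.56 to 2.23, so that a return toward WT and no change at all both lay within the intervals. Between days 2 and 7, Slc26a3 was the 1 member that passed (against 4.37% of all genes), its effect being -0.23 at day 2 and 0.77 at day 7 (difference 1.01, SE 0.24, adjusted p = 0.0242). At day 2 Slc26a3 measured 206, 176 and 238 CPM in WT and 179, 167 and 181 CPM in KO, the genotypes overlapping. The call for this difference was lost without KO day 2 replicate 1 or 2, WT day 2 replicate 1 or 3, KO day 7 replicate 1, or WT day 7 replicate 1 or 3, with differences of 0.81 to 1.13 over the 12 fits.

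Levels were also compared between days within each genotype, in comparisons that share the day 2 libraries and in which the later mice had received more injections. Sex was not a term in these comparisons. In both genotypes the genes removed for a sex difference held a high share of counts in replicate 3 at days 2 and 14. At day 7 this was so in replicates 1 and 2. The summed CPM of the 41 genes in WT was 18375, 27253 and 37218 in the lowest, middle and highest library at day 2, 16368, 17369 and 17612 at day 7 and 9009, 15868 and 17030.1 at day 14. In KO it was 22110.5, 25504 and 28236 at day 2, 18147, 18505 and 23328 at day 7 and 14819, 17000.2 and 22191 at day 14. All 3 WT sums at day 7 lay below those of WT day 2, whereas 1 KO day 7 library reached into the range of KO day 2. From day 2 to day 14, WT values were lower for 35 of 41 members, with a median log2 fold change of -0.80 (all genes 0.01), and 8 were called, all lower (19.5%, against 1.61% of all genes in either direction and 0.871% lower): Slc5a1 (-1.65), Slc15a1 (-1.78), Slc2a2 (-1.74), Slc2a5 (-1.66), Mme (-1.59), Enpep (-1.23), Slc3a1 (-1.07) and Dpp4 (-1.01). This count rested on single mice. Leaving out WT day 2 replicate 1 gave 0 calls (0.101% of all genes). Leaving out WT day 2 replicate 3 or WT day 14 replicate 1 gave 1 (0.280% and 0.214% of all genes), and leaving out WT day 2 replicate 2 gave 19 (3.23% of all genes). From day 2 to day 7 no WT value passed (0 of 41, against 0.553%), with 19 at an unadjusted p under 0.05 (22.4% of all genes were) and a median of -0.62. DESeq2's Wald test called 11 (8.26% of all genes), and leaving out WT day 2 replicate 2 gave 10 calls (2.43% of all genes).

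In KO crypts 12 members were called between days 2 and 7, 11 lower (8.80% of all genes were lower) and 1, Slc26a3, higher (7.21% of all genes were higher; 0.64, adjusted p = 0.0154). The largest of these falls were -2.59 for Tmprss15, -2.55 for Cubn, -2.14 for Lct and -1.64 for Slc28a2 on the log2 scale. Tmprss15 measured 59.4, 54.2 and 47.5 CPM in KO at day 2, 5.07, 11.7 and 9.91 CPM at day 7 and 4.90, 16.2 and 7.29 CPM at day 14, and 53.6, 28.4 and 42.3 CPM, 25.8, 5.56 and 22.2 CPM and 3.40, 16.1 and 13.02 CPM in WT on the same days. The later values were below the day 2 values in both genotypes, WT day 7 replicate 1 being nearest to its day 2 group. The count in KO was 7 without KO day 2 replicate 3 and 4 without KO day 7 replicate 1, where 10.04% and 10.9% of all genes were called. Between days 2 and 14, 10 were called in KO, 9 lower (5.75% of all genes were lower) and 1, Slc1a1, higher (5.54% of all genes were higher; 0.50, adjusted p = 0.0344), and the count was 4 without KO day 2 replicate 1, 2 without KO day 2 replicate 3 and 1 without KO day 14 replicate 1 or 3, where 6.12%, 5.22%, 5.27% and 6.01% of all genes were called in that order. Markers of other cells moved in the same comparisons. Between days 2 and 7 in KO 7 of 8 Paneth, 6 of 8 stem, 6 of 10 proliferation, 3 of 8 goblet and 3 of 8 tuft cell markers were called lower and 7 of 8 enteroendocrine markers higher, and no absorptive lipid gene was called. Of the 8 immune markers 1 was higher and 1 lower, and of the 9 stromal markers 1 was higher. Between days 2 and 14 in KO 3 of 8 Paneth, 2 of 8 stem and 3 of 10 proliferation markers were lower and 7 of 8 enteroendocrine markers higher, with 1 goblet marker higher and 2 lower, and 2 tuft cell, 1 immune and 1 stromal marker higher. In WT none of these markers was called between days, except for 1 absorptive lipid gene that was lower at day 14. The values of all 8 absorptive lipid genes were nevertheless below day 2 in WT, their median difference on the log2 scale being -1.22 at day 7 and -1.17 at day 14, with 7 of 8 at an unadjusted p under 0.05 in both comparisons, beside member medians of -0.62 and -0.80. All 8 enteroendocrine markers were also below day 2 in WT, with medians of -0.52 and -0.52 and 3 and 5 at an unadjusted p under 0.05. Of the 8 immune markers 4 were higher and 4 lower in WT at day 14, with 5 at an unadjusted p under 0.05. Their sums were 67.6 to 120 CPM at day 14 and 145 to 190 CPM at day 2. Proliferation markers had lower values in WT for all 10 at day 7 (median -0.29) and for 7 of 10 at day 14. The part of all these markers in the differences between days was not tested. Slc3a1 had the smallest adjusted p among the members in KO at day 7 (-1.20, adjusted p = 0.000856) and at day 14 (-1.45, adjusted p = 0.000305) against day 2.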

How the data were processed

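The deposited table holds raw read counts per gene, made by the authors with STAR 2.7.3 and featureCounts 1.6.4 on mm10, with versions from the submitters' processing notes. Its header names GENCODE mouse release 23 and shows counting without strand, without multi-mapped reads and with a read given to every gene it overlaps, so antisense and overlapping genes cannot be separated. The 20 genes that the study removed for a difference between sexes were left out. Counts were filtered with filterByExpr, scaled with TMM (edgeR 4.0.16, R 4.3.3) and fitted over all 18 libraries with 1 mean per group, using robust quasi-likelihood tests with Benjamini-Hochberg adjustment over 21349 genes and a threshold of 0.05. CPM and RPKM were computed from the counts.

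The members, gene lists and tests were chosen with earlier results of these data known. All 41 genes could be named, with values per library for called genes, partner subunits and Vil1; Alpi and Tmprss15 were added after their values were seen, and from other lists at most 3 called genes per list, day and direction were named, plus Prmt1, Slc3a2 and the factors whose motifs were searched. Alternatives were DESeq2 1.42.0 (Wald test, and its size factors), the 20 most abundant genes left out, no filter, the removed genes kept, a fit of only the groups in question, a block for the replicate number and each library left out. Replicate numbers are shared between genotypes in the labels. At day 14 the deviations of same-numbered KO and WT libraries correlated at 0.227, 0.180 and 0.159, all above 0.1, so that the numbers were taken to pair the libraries there. At day 2 the correlations were 0.0478, 0.158 and 0.381 and at day 7 -0.159, 0.206 and 0.0787, and the numbers were not taken to pair. No range expected without pairing was computed for these correlations. Pairing was therefore assumed at day 14, and was not excluded at days 2 and 7. The labels do not give the sex of each mouse, and sex was not used as a term. The removed genes held 0.130% to 0.327% of counts in replicate 3 at days 2 and 14 and replicates 1 and 2 at day 7. This was so in both genotypes, and in every other library they held 0.0390% to 0.0479%. Same-numbered KO and WT libraries thus matched in this share on every day, while day 7 differed from the other days. Some regulator genes are not reported here.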

Additional observations from a re-analysis of the deposited data

Results flagged for a closer look

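Slc26a3 was the 1 brush border gene whose genotype effect passed the test of a difference between days 2 and 7. Its log2 fold change of KO over WT was -0.23 at day 2 and 0.77 at day 7, a difference of 1.01 (SE 0.24, adjusted p = 0.0242, by the edgeR test, Benjamini-Hochberg adjusted). All 3 KO libraries were above all 3 WT libraries at day 7, and the genotypes overlapped at day 2. The number of tamoxifen injections also differed between these days, so that time and injections cannot be told apart. The call was lost when any 1 of 7 of the 12 libraries was left out, with adjusted p up to 0.0716, and the number of members called ranged from 0 to 2 over these fits. It was 2 with DESeq2's Wald test and with only the groups compared. In the main fit 4.37% of all genes were called for this difference. The share of all genes is not given for the other fits, so their counts are no result about the members. The genotype effects of days 2 and 14 were not compared. No formal outlier test was run on groups of 3.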

How the results depend on the processing

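Of the KO against WT values of single members, 486 of 533 at day 7, 475 at day 14 and 482 at day 2 kept their direction and their side of the threshold over the alternatives. At day 7, 13 moved past the threshold and 19 lost it, and at day 14 the numbers were 9 and 11. The sign changed for 15 values of 9 members at day 7, 38 of 16 at day 14 and 51 of 31 at day 2, in 0 cases for a value that was called in either fit. Among the called genes, their partner subunits, the meprin and cystine transporter genes, Vil1, Krt20, Alpi, Slc5a1 and Slc28a2, the log2 fold changes that changed sign with single libraries left out ranged from -0.66 to 0.0529 for Slc28a2 at day 7, and at day 14 from -0.782 to 0.14 for Mep1a, -0.0346 to 0.325 for Mep1b, -0.186 to 0.21 for Amn and -0.0498 to 0.156 for Slc7a9. The number of members called was 6 at day 7, and 11 in a fit of only the groups compared. It was 2 at day 14, and 1 in that fit. For the difference of effects between days 2 and 7 it was 1, and 2 with DESeq2's Wald test or only the groups compared. In WT between days 2 and 7 it was 0, but 11 with DESeq2's Wald test, 8 without the filter on low counts and 2 with only the groups compared. In WT between days 2 and 14 it was 8, but 21 with DESeq2's Wald test, 15 without the filter and 0 with only the groups compared. With the replicate block 10 members were called at day 7, 4 higher and 6 lower, where the numbers were not taken to pair the mice, and 6 at day 14. The block left the number called at 0 for day 2, at 0 for the difference between days 7 and 14 and at 1 for that between days 2 and 7, and could not be used between days. With single libraries left out the count ranged from 2 to 6 at day 7, 0 to 2 at day 14, 0 to 2 for the difference between days 2 and 7, 0 to 10 in WT between days 2 and 7, 0 to 19 in WT between days 2 and 14, 4 to 11 in KO between days 2 and 7 and 1 to 11 in KO between days 2 and 14. Where a count here stands without the share of all genes called in the same fit, it is no result about the members. That share moved with the setting too. The comparisons between days, and their alternatives, were added after seeing the data. The causes were not tested. With 3 mice per group, 24 of 41 members had a 95% interval of the log2 fold change within 1 of zero at day 7 and 27 at day 14, which limits what could be detected in the rest.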
